A study of Mus musculus with 6 samples.

Results

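Genes of embryonic macrophages, the first white blood cells to settle in the tissues of the embryo, were followed in wildtype and Ret null mouse gut, 10 in all. They are the lineage factor gene Spi1, the surface receptor genes Csf1r, Cx3cr1 and Ptprc, the signalling adaptor genes Fcer1g and Tyrobp, the complement genes C1qa, C1qb and C1qc, and Aif1. They were chosen by name, as markers of the cell type, with earlier results of these data known. They are 10 of 23233 gene lines in the table. Of the 10, 9 stood under their own symbol. Spi1 was found under Sfpi1, which RefSeq gives as its older symbol.

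The study measured messenger RNA of whole gut dissected at stage E10.5. The groups are 3 wildtype samples and 3 samples of embryos without functional Ret, labelled Ret null and homozygous. Ret is the receptor tyrosine kinase that neural crest cells need to colonise the gut. C57BL/6J is the strain given for all 6 samples, and both genotypes are described as male. The labels do not say how the null allele was made, or how many embryos went into a sample. The deposited table gives 1 FPKM value per genotype (fragments mapped to a gene, scaled to its transcript length and to library size), so values per sample, and the spread between them, cannot be shown. Ret itself had 8.80 FPKM in wildtype against 0.0354 FPKM in Ret null gut. In the same 2 columns Xist, expressed from the inactive X chromosome of female cells, stood at 0.136 and 31.8 FPKM and the Y-linked Ddx3y at 18.3 and 10.7 FPKM, which goes against a wholly male Ret null group. Embryo sex therefore cannot be told apart from genotype in these values.

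Macrophages of this stage derive from the yolk sac, travel through the blood and enter organs before bone marrow exists. The transcription factor PU.1, encoded by Spi1, directs their formation, and signalling through the growth factor receptor Csf1r keeps them alive. In tissue they engulf dying cells, and those that stay in the brain become microglia.

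The macrophage genes had nearly the same summed level in both genotypes. Their FPKM values added up to 86.1 in wildtype and 86.5 in Ret null gut, a difference of 0.477% and a log2 fold change (Ret null over wildtype) of 0.01. No member was called at q under 0.05 in the authors' Cuffdiff test, while the same rule called 14.6% of 13430 tested lines, 8.88% as lower and 5.69% as higher in Ret null gut. At an unadjusted p under 0.05, which 23.4% of tested lines met, the count of members was also 0. It was 0 again with a normal p, read from the deposited statistic against a normal curve and adjusted by Benjamini-Hochberg, which called 4.5% of tested lines. All 10 members had been tested by the authors, and 9 reached 1 FPKM in at least 1 genotype. The members' median log2 fold change was -0.05, against 0.01 over all tested lines. Their median size of change in either direction was 0.12, against 0.14 over all tested lines, so as a group they were close to the middle of the table.

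**Figure D1:**
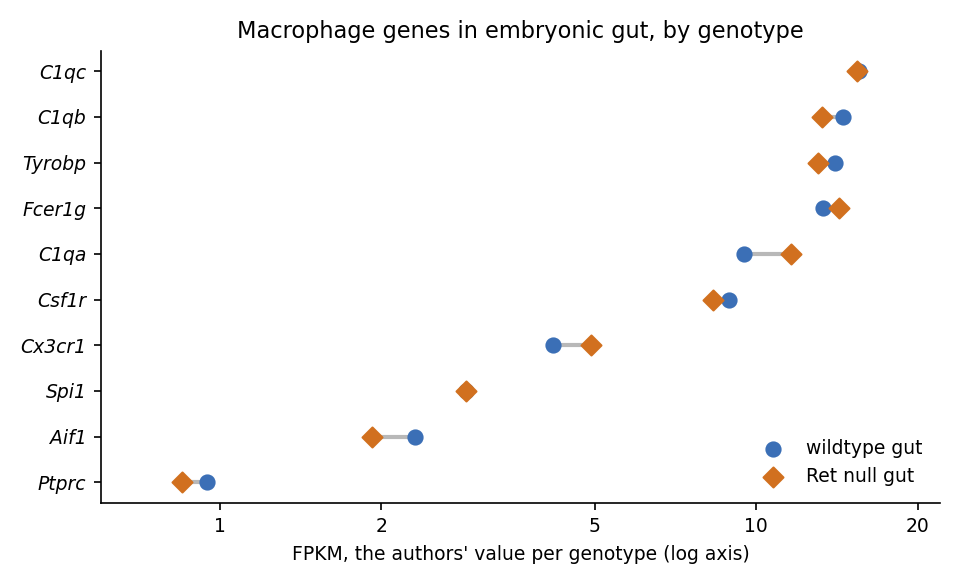
FPKM of each macrophage gene in wildtype (circles) and Ret null gut (diamonds), as the authors' value per genotype on a log axis. The 2 values of a gene lie close together, and the widest gap in percent is that of C1qa, at 9.50 and 11.6 FPKM.

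The gene of the lineage factor, Spi1, had the same value of 2.88 FPKM in wildtype and Ret null gut. Its log2 fold change was 0.00 with a standard error of 0.44. The error is that implied by the authors' test statistic (the log2 fold change divided by the statistic), and a 95% normal interval from it runs from 0.55 to 1.82 times the wildtype level. In the authors' deposited table its q was 0.994. The line covers chromosome 2, 91096797 to 91115756 (mm10), and starts inside the longer gene that RefSeq annotates.

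PU.1 binds DNA through purine-rich letters around a GGAA core, and several macrophage genes are known to be under its control. RefSeq promoter windows (GRCm38.p6, the build also called mm10) were at hand for 6 of the 10 members, in 7 windows. The 250 bases before each start were searched on both strands for AGGAAGT, a form of this core. It was found in windows of C1qb, C1qc and Ptprc, in 4 of the 7, and in 7.69% of all 32851 windows of that length. The motif was not found in the windows of Fcer1g, Cx3cr1 and Aif1. The windows below are shown because they hold these letters, which are in capitals on whichever strand they lie, and each is printed 5′ to 3′ on the gene's strand (minus in all of them). C1qb is chr4:136886201-136886450, C1qc is chr4:136892915-136893164 and Ptprc is the upstream of its 2 starts, chr1:138175306-138175555.
C1qb: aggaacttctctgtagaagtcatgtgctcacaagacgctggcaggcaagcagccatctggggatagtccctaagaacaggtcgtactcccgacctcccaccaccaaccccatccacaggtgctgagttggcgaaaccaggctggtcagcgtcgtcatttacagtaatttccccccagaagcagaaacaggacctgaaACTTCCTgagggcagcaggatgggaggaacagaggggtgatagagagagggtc
C1qc: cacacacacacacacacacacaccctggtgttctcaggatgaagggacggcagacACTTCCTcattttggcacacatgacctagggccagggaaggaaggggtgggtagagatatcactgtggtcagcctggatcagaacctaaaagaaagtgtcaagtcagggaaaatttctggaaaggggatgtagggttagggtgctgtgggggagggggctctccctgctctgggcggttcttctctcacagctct
Ptprc: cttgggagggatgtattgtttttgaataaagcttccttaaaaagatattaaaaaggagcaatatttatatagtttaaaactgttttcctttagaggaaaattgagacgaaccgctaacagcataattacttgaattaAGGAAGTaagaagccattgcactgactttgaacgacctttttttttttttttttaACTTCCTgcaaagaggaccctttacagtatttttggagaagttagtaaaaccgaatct
The match begins 53 bases before the start in C1qb, 195 in C1qc, and 113 and 58 in Ptprc. The second Ptprc window overlaps the first and shares 1 of its matches. A match is a description of the letters, and binding was not measured.

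Among the receptors, Csf1r, which binds the growth factors Csf1 and interleukin 34, was at 8.91 FPKM in wildtype gut and 8.31 in Ret null gut. The log2 fold change was -0.10 ± 0.21 (SE), with a normal interval from 0.70 to 1.25 times wildtype, the narrowest of the 10. In the authors' deposited table its q was 0.742. The Csf1r line covers chromosome 18, 61105572 to 61131139, exactly the RefSeq gene, and a microRNA gene (Mir6983) lies within it.

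Cx3cr1 encodes the receptor for fractalkine and marks yolk sac macrophages and their precursors. Its value was 4.18 FPKM in wildtype gut and 4.93 in Ret null gut, 17.8% higher, with a log2 fold change of 0.24 ± 0.26 (SE). Its p and q in the authors' deposited table, 0.127 and 0.396, were the lowest of any member. Per Csf1r, the other receptor typical of macrophages, Cx3cr1 was at 0.469 in wildtype and 0.593 in Ret null gut. The line covers chromosome 9, 120048683 to 120068296.

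Ptprc encodes CD45, a tyrosine phosphatase on the surface of nearly all white blood cells. It was the lowest member, at 0.945 FPKM in wildtype gut and 0.851 in Ret null gut (log2 fold change -0.15 ± 0.45, SE). In the authors' deposited table its q was 0.833. The interval runs from 0.49 to 1.65 times wildtype. An RNA gene, A130071D04Rik, overlaps the Ptprc line, and no strand setting is given in the sources used here, so their reads may not be separated.

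Fcer1g and Tyrobp encode small membrane adaptors. Each carries an ITAM, a tyrosine motif that recruits the kinase Syk, and passes on signals from receptors with short tails: Fcer1g for Fc receptors, Tyrobp for receptors such as Trem2. Fcer1g was at 13.3 FPKM in wildtype gut and 14.2 in Ret null gut, and Tyrobp at 14.03 and 13.04 FPKM. The pair thus changed places in order, with Fcer1g at 0.949 of Tyrobp in wildtype and 1.09 in Ret null gut. Their log2 fold changes were 0.10 ± 0.28 and -0.11 ± 0.29 (SE), each smaller than its error. Added together they came to 27.3 FPKM in both genotypes. Their q-values in the authors' deposited table were 0.888 and 0.884.

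C1qa, C1qb and C1qc encode the 3 chains of C1q, the recognition molecule that starts the classical complement pathway and that macrophages secrete. The 3 genes sit side by side on the minus strand of chromosome 4, with C1qb at 136880145 to 136886177, C1qc at 136889802 to 136892914 and C1qa at 136895916 to 136898844. C1qc was the highest of all members in both genotypes, at 15.5 FPKM in each (log2 fold change -0.01 ± 0.24, SE). C1qb was at 14.5 FPKM in wildtype gut and 13.3 in Ret null gut (-0.13 ± 0.25, SE). C1qa went the other way, from 9.50 FPKM in wildtype to 11.6 FPKM in Ret null gut, 22.1% higher (0.29 ± 0.28, SE).

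The difference in C1qa was the largest of any member in size and the only one with a statistic over 1. It did not pass, with p = 0.130 and q = 0.404 in the authors' deposited table and a normal interval from 0.83 to 1.79 times wildtype. C1qa remained the lowest chain in both genotypes, at 0.612 of C1qc in wildtype and 0.751 in Ret null gut. The sum of the 3 chains was 39.5 FPKM in wildtype gut and 40.3 in Ret null gut, 45.9% and 46.6% of the member total.

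Aif1 encodes Iba1, a calcium-binding protein of the macrophage cytoskeleton that is widely used to stain microglia. It was at 2.31 FPKM in wildtype gut and 1.92 in Ret null gut, the largest drop in size among the members (log2 fold change -0.26 ± 0.55, SE). Its standard error was also the largest, with an interval from 0.39 to 1.76 times wildtype. In the authors' deposited table its q was 0.791. The line lies on chromosome 17, 35170992 to 35176001.

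**Figure D2:**
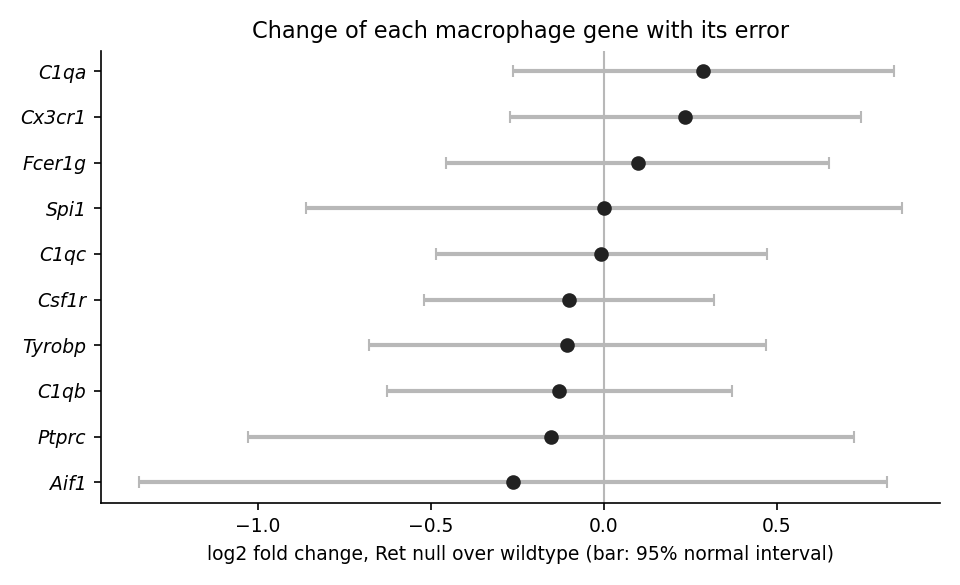
Log2 fold change of each macrophage gene, Ret null over wildtype, with its 95% normal interval from the standard error implied by the authors' test statistic. Changes run from -0.26 (Aif1) to 0.29 (C1qa), and all 10 intervals hold 0. The normal p from the same error called 4.5% of tested lines, against 14.6% by the authors' q. Such intervals are therefore wider than the authors' test implies, and can hold 0 for called lines.

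The order of the genes by level was nearly the same in both genotypes. From high to low it was C1qc, C1qb, Tyrobp, Fcer1g, C1qa, Csf1r, Cx3cr1, Spi1, Aif1 and Ptprc in wildtype. In Ret null gut Fcer1g moved up to the place after C1qc and the rest kept their order. The highest member was 16.4 times the lowest in wildtype and 18.2 times in Ret null gut. FPKM is scaled to transcript length, so these levels can be compared between genes, but no spread of a level is given and neighbours in the order cannot be said to differ. In whole gut, the number of macrophages and the RNA per macrophage cannot be told apart.

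The size of a change that could be called depends on level. Among tested lines with a mean of 5 to 20 FPKM, where 6 members lie, the median standard error was 0.22, the smallest called change was 0.28 on the log2 scale and 14.1% were called. Between 1 and 5 FPKM, where Cx3cr1, Spi1 and Aif1 lie, these were 0.39, 0.34 and 21.5%. Under 1 FPKM, the class of Ptprc, they were 0.61, 0.61 and 34.7%. C1qa, at 0.29, was the only member whose change was above the smallest called in its class. The 10 members' changes, -0.26 to 0.29, span a range that holds 72.7% of all tested lines.

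**Figure D3:**
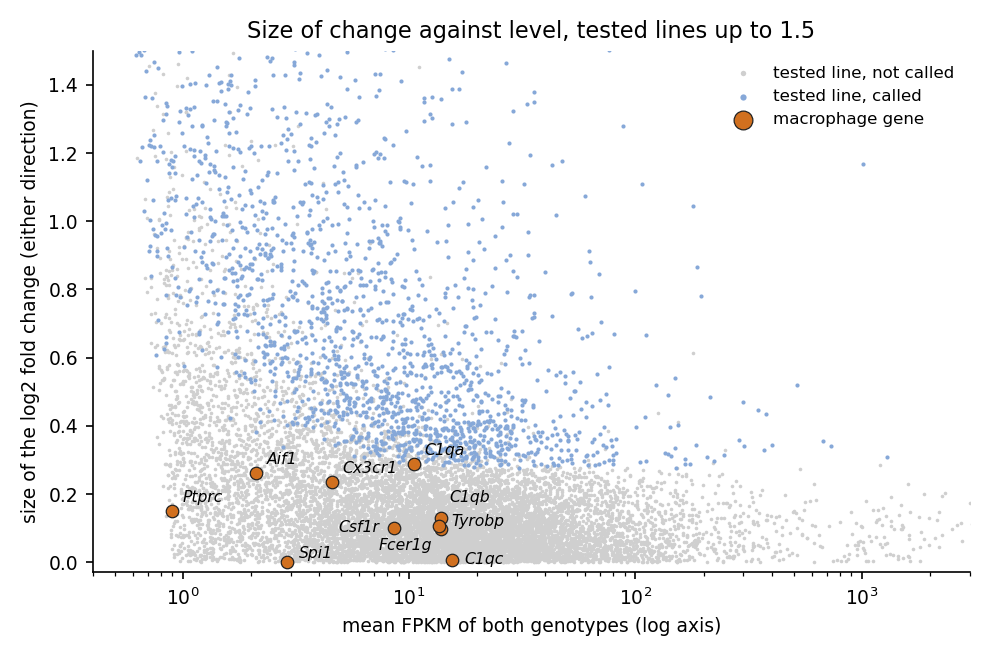
Size of the log2 fold change against mean FPKM (log axis) for tested lines with changes up to 1.5, called lines in blue and not called in grey, with the macrophage genes in orange. The members lie below the called lines or, for C1qa at 0.29, at their lower edge.

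Other genes of the macrophage surface and lysosome were mostly not called. Of 50 tested lines in this list 2 fell and 1 rose, and 47 did not pass. The share called was 6%, below the 14.6% of all tested lines. The falls were Ctsh, which encodes a lysosomal protease, from 11.2 to 6.75 FPKM (log2 fold change -0.72, q = 0.000775 in the authors' deposited table), and Csf2rb, a receptor subunit for myeloid cytokines, 1.99-fold, to 0.561 FPKM (q = 0.00881 in the authors' deposited table). The rise was Slc40a1, the iron exporter, from 15.9 to 19.7 FPKM (0.31, q = 0.0414 in the authors' deposited table). The highest lines, Cd63, Cst3 and Ctsd, are expressed in many cell types and stood at -0.06, 0.10 and -0.11. Some classical macrophage markers, named after their values were seen, were Cd68 at 7.74 and 7.81 FPKM, Lyz2 at 9.41 and 7.57, Mrc1 at 4.25 and 3.97 and the F4/80 gene (listed as Emr1) at 3.13 and 2.47, wildtype first, and none passed. The list's median was -0.15, below that of the members and of all tested lines, and 39 of its 50 tested lines had the lower value in Ret null gut. With the authors' unadjusted p under 0.05, 8 lines of this list were lower and 1 higher, and the normal p called none. Of 42 tested genes shared by most white blood cells 3 fell (Dock10, Itga4 and Plek, at -1.08, -1.01 and -0.57), 1 rose (Rgs10, 0.73) and the median was -0.06. The calls were 9.52% of this list, also below the share of all tested lines. Itga4, an integrin subunit, and Dock10 are also expressed outside blood cells.

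The ligands of Csf1r and Cx3cr1 were measured in the same gut, within a wider list of ligands and growth factors. Csf1, the main growth factor of macrophages, was at 5.82 FPKM in wildtype gut and 7.06 in Ret null gut (log2 fold change 0.28 ± 0.24, SE). It did not pass (q = 0.192 in the authors' deposited table). Il34, the other ligand of Csf1r, was at 0.233 and 0.213 FPKM and had not been tested by the authors. Cx3cl1, which encodes fractalkine, fell from 2.98 to 1.98 FPKM (-0.59 ± 0.36, SE), with q = 0.0469 in the authors' deposited table, close to the threshold, while its receptor gene Cx3cr1 did not pass. Tgfb1, a growth factor of the wider list, was at 8.66 and 8.71 FPKM. Of 10 tested lines in the wider list 4 fell and 0 rose, 40% called against 14.6% of all tested lines. Besides Cx3cl1 these were Tgfb2, Kitl and the chemokine gene Cxcl12 (-0.39, -0.38 and -0.34), which are not ligands of Csf1r or Cx3cr1. At an unadjusted p under 0.05 there were 5 in the direction of a fall and 1 in that of a rise, and the normal p called none in either direction.

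Among the partners of C1q more genes rose than fell. The proteases that C1q activates were low, with C1s at 1.92 and 1.25 FPKM (q = 0.103 in the authors' deposited table) and C1ra at 0.707 and 0.279 FPKM, not tested by the authors. Of 16 tested complement genes 4 rose and 1 fell, 31.2% called against 14.6% of all tested lines. The central component C3 rose 5.50-fold to 1.65 FPKM and the alternative pathway gene Cfb from 0.750 to 2.30 FPKM. The regulator gene Cd55 rose from 9.17 to 14.0 FPKM. These 3 had q = 0.000775 in the authors' deposited table. The other rise was C1qbp (0.36), a mitochondrial protein despite its name. Alongside C3 and Cfb, which hepatocytes make, 12 of 15 tested hepatic markers rose, and the summed FPKM of all 16 lines of that list went from 48.2 to 402. Their part in these rises was not tested. The receptors C3ar1 and C5ar1, which myeloid cells carry, were at -0.02 and -0.20 and did not pass.

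Of 19 tested genes that act with the ITAM adaptors 2 fell and 0 rose. Syk, the kinase that binds them, fell from 4.95 to 3.73 FPKM (log2 fold change -0.41 ± 0.25, SE, q = 0.029 in the authors' deposited table). Cbl, a ubiquitin ligase not restricted to blood cells, fell from 7.28 to 1.72 FPKM. At an unadjusted p under 0.05 there were 4 of these genes in the direction of a fall and 1 in that of a rise, and the normal p called Cbl alone. Among receptors that pair with Tyrobp and Fcer1g, those tested and named here did not pass: Trem2 was at 2.41 and 1.87 FPKM, Fcgr3 at 4.41 and 4.16 and Fcgr1 at 0.987 and 1.15. Several others, among them Fcgr4, Trem1 and Clec5a, were under 1 FPKM in both genotypes and had not been tested by the authors. Fcgr2b, which signals without an adaptor, was under 0.5 FPKM in both genotypes and not tested.

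Of 30 tested myeloid transcription factors 6 fell and 6 rose, 40% called against 14.6% of all tested lines, with a median of 0.19. Among the falls were Zeb2 (-0.58), Mef2c (-0.84) and Sall1 (-1.78), a microglial factor that kidney precursors also express. Among the rises was Cebpa, from 1.67 to 3.11 FPKM (0.89), which liver cells also express. Myb and Ikzf1, factors of blood progenitors, were also higher (0.64 and 0.83), the latter named after its value was seen. The q-values of Cebpa, Myb and Ikzf1 were 0.00517, 0.0232 and 0.00797 in the authors' deposited table. Irf8 and Runx1, which act with PU.1 in myeloid development, were at 0.27 and 0.36 and did not pass. With the normal p the calls of this list came down to 2, Sall1 and Mef2c.

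**Figure D4:**
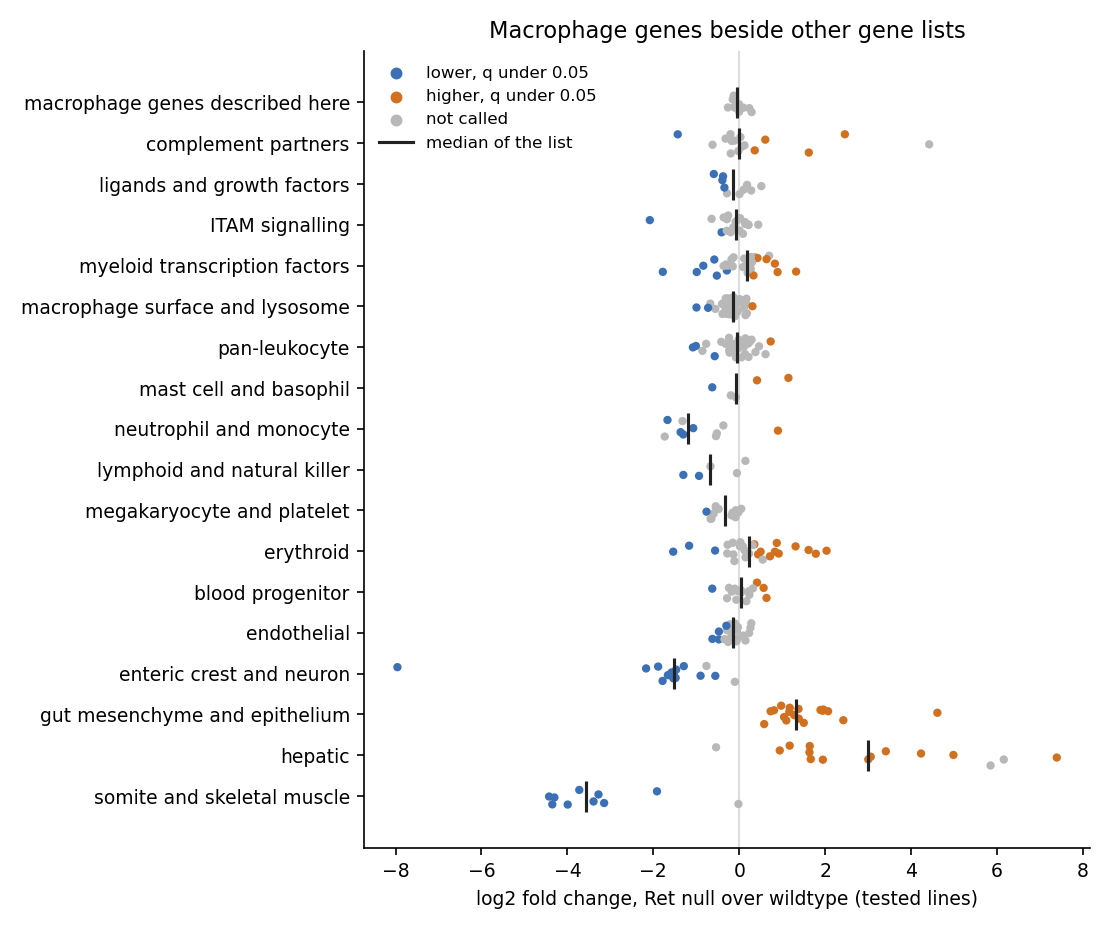
Log2 fold change, Ret null over wildtype, of tested lines in each gene list, with called lines in colour and the median of each list as a bar. The macrophage genes lie between -0.26 and 0.29 with none called, while lists of crest, gut wall, liver and muscle genes hold many calls. All lists were chosen with earlier results of these data known.

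Some members are also expressed in other blood cell types, whose part in the members' values was not tested. For mast cells, which also use Fcer1g, Tpsb2, Tpsab1 and Mcpt8 were listed at 0 in both genotypes. Of 5 tested mast cell lines 2 rose and 1 fell, 60% called against 14.6% of all tested lines. Cpa3 rose from 0.868 to 1.92 FPKM (q = 0.0379 in the authors' deposited table). Kit and Gata2, which other cells also express, went from 17.4 to 23.1 and from 15.6 to 10.1 FPKM. For lymphocytes, which also carry Ptprc, Cd3d, Cd3e, Pax5 and Ncr1 were listed at 0 in both genotypes. Of the 24 lymphoid lines 5 were tested, of which 2 fell and 0 rose, with none at an unadjusted p under 0.05 in the direction of a rise. The share called was 40% of those tested. Thy1 fell from 6.29 to 2.55 FPKM and Ebf1 from 4.71 to 2.46, both also expressed outside blood cells. Among the others, Tcf7 at 8.45 and 9.34, Lck at 4.12 and 3.97 and Cd79b at 1.41 and 0.888 FPKM did not pass. Of 10 tested neutrophil and monocyte markers 4 fell and 1 rose: S100a8 fell from 18.1 to 7.03 FPKM, S100a9 from 17.9 to 7.25 and Ngp, named after its value was seen, from 3.48 to 1.66 (Ltf was the other), while Plac8 rose from 19.5 to 36.4. The calls were 50% of the neutrophil and monocyte markers tested. S100a8 had a log2 fold change of -1.36 ± 0.32 (SE), with q = 0.00263 in the authors' deposited table. Its part in the white blood cell genes that fell was not tested.

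Red cell genes held calls as well. Of 27 tested erythroid lines 3 fell and 11 rose, 51.9% called against 14.6% of all tested lines. The falls were the embryonic globin genes Hbb-y, Hba-x and Hbb-bh1, of which Hbb-y went from 4532 to 3070 FPKM. The rises included Gata1, from 0.906 to 3.12 FPKM, and Hemgn. Of 26 tested endothelial genes 4 fell and 0 rose (Emcn, Tek, Kdr and Aplnr, -0.62 to -0.30), with a median of -0.14. These are 15.4% of the list, near the 14.6% of all tested lines. At an unadjusted p under 0.05 there were 7 endothelial genes in the direction of a fall and 2 in that of a rise, and the normal p called none. Of 14 tested megakaryocyte and platelet genes Vwf fell (-0.76), and Pf4, which embryonic macrophages can also express, was at 20.7 and 13.7 FPKM (q = 0.0515 in the authors' deposited table). The share called was 7.14%. The median of this list was -0.33, and 13 of the 14 had the lower value in Ret null gut. With the authors' unadjusted p under 0.05, 4 were lower and 0 higher, and the normal p called Vwf alone. Of 16 tested blood progenitor genes 3 rose and 1 fell, a share of 25%.

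Beside these lists, marker genes for cell types of the gut and its surroundings differed strongly in the same 2 columns. Of 15 tested enteric crest and neuron genes 13 fell, and the summed FPKM of all 15 went from 217 to 92.8. All 18 tested gut mesenchyme and epithelium genes rose, and the 19 lines of that list went from a sum of 385 to 978 FPKM. Of 10 tested somite and skeletal muscle genes 9 fell, and the 12 lines of that list, untested ones included, went from a sum of 179 to 22.3 FPKM. The summed macrophage genes stood at 86.1 and 86.5 FPKM. The members and all of these lists were chosen with earlier results of these data known. The shares called are therefore descriptions and not tests. FPKM is a share of each library, and cell types were not counted. How these differences in marker genes bear on the macrophage values was not tested.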

How the data were processed

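Guts were dissected and poly(A)-selected TruSeq libraries made, per the labels' protocols. The submitters' processing notes name Picard, TopHat2, Cufflinks, Cuffdiff and mm10, and give no version. The FPKM values were deposited as 1 value per genotype, read by the letters w (wildtype) and h (homozygous null), and the p-values and q-values are the authors' own, per the file headers. The deposited test statistic is a score, and the log2 fold change divided by it gave the standard error, from which the deposited q cannot be derived. The normal p from this error called fewer lines than the authors' q, so intervals built on it can span no change for called lines. Counts were not used here, so depth is unknown.

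Of 23234 lines 1 held 2 run-together records and was not used. Log2 fold changes were recomputed from FPKM, since 590 deposited cells hold an error text. The deposited q equals a Benjamini-Hochberg adjustment over 13430 tested lines within 5.9e-05. No test over replicates could be run, and q under 0.05 was the call. The p-values are from the authors' Cuffdiff test over these samples, which the labels do not tie to separate litters. They cannot be read as a measure of the spread between embryos or litters. For the normal p, 8 tested lines without a statistic were given p of 1. Code was tested on simulated data (Python 3.11.15, scipy 1.17.1).

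The members and the 17 other lists were chosen with earlier results of these data known. Besides all members, the genes named were taken from up to 4 called and the 3 highest lines of each list and a fixed set of ligands, C1q proteases, receptor partners and factors. Others were named after their values were seen. A few genes that enter the counts are not reported here by name. Alternatives were other q thresholds, unadjusted p, the normal p, minimum values of 1 and 5 FPKM, 0.1 or 1 FPKM added, centring, and sums without C1qc or the C1q genes.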

Additional observations from a re-analysis of the deposited data

How the results depend on the processing

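The count of called members was 0 under every alternative run: q under 0.01 or 0.1, unadjusted p under 0.05, the normal p, and minimum values of 1 and 5 FPKM with the adjustment redone. The lowest member p and q in the authors' Cuffdiff test were 0.127 and 0.396, so these p and q thresholds could give no other count. Ptprc lies under the 1 FPKM minimum, and Cx3cr1, Spi1 and Aif1 also under that of 5 FPKM, so those counts cover fewer members. The median log2 fold change of the members was -0.05 with no FPKM added, -0.04 with 1 FPKM added and -0.06 when centred on the median of tested lines at 1 FPKM or more (0.01). The log2 fold change of their sum was 0.01, and between -0.01 (without the 3 C1q genes) and 0.01 (without C1qc) otherwise, so its sign depends on these choices. All 30 member fold changes under other settings lay within 1 standard error of the reported value. This was bound to be so and is no sign of robustness. Added FPKM only shrinks changes that were already near or below their error, and centring moves each by 0.01. Of 318 tested lines in the 17 other lists 112 were called, and 70 with the normal p. By list the normal p left 3 of 5 complement calls, 0 of 4 ligands, 1 of 2 ITAM genes, 2 of 12 transcription factors, 0 of 3 macrophage surface, 2 of 4 white blood cell, 0 of 3 mast cell, 3 of 5 neutrophil, 1 of 2 lymphoid, 7 of 14 erythroid, 0 of 4 progenitor and 0 of 4 endothelial calls. At an unadjusted p under 0.05 the macrophage surface list had 9, with 8 in the direction of a fall and 1 in that of a rise. The endothelial list also had 9, with 7 and 2. At q under 0.01 the ligands had 1 and the transcription factors 5. No paired analysis was possible because the table has 1 value per genotype, and for the same reason no replicate could be left out. Low values limit Ptprc, Spi1 and Aif1 most.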

Other observations

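The genes next to the members on the chromosome, taken by position after the data were seen, gave 16 distinct tested neighbours that are no member, of which 2 rose and 0 fell in the authors' Cuffdiff test, a share near the 14.6% of all tested lines. One is Apoa2, an apolipoprotein gene of the liver, 3192 bases from Fcer1g. Apoa2 rose from 1.34 to 25.2 FPKM (log2 fold change 4.23 ± 0.51, SE), while Fcer1g stood at 13.3 and 14.2 FPKM. The other rise was Nr5a2, an endoderm factor gene, 1102410 bases from Ptprc (0.63, q = 0.0252 in the authors' deposited table). The C1q cluster is flanked by Ephb2 and Zbtb40, at 0.12 and 0.00, and neither passed. Lst1, a white blood cell gene beside Aif1, was at 6.10 and 4.56 FPKM (-0.42, q = 0.611 in the authors' deposited table).

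Set against its receptor gene, Csf1 stood at 0.653 of Csf1r in wildtype and 0.849 in Ret null gut, and Cx3cl1 at 0.713 of Cx3cr1 in wildtype and 0.402 in Ret null gut. Trem2 was at 0.171 and 0.144 of Tyrobp and Fcgr3 at 0.331 and 0.292 of Fcer1g. These are ratios of the authors' FPKM values, without an error.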
